A study of Mus musculus with 3 samples.

Results

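Lactoferrin and 5 other genes of secreted mucosal defence proteins, *Ltf*, *Pglyrp1*, *Dmbt1*, *Sftpd*, *Fcgbp* and *Lcn2*, were followed through every cell class of the adult mouse lacrimal gland (LG), the gland that secretes the watery part of the tears. They were chosen by name, and all 6 were found among the 32285 genes of the deposited single-cell count tables. The data comprise 3 libraries of cells dissociated from the LG, 1 from females and 2 from males. Each library pooled 6 glands of 3 C57BL/6J mice aged 2 months, so a value over libraries is a value over pools of animals. The female library was handled at one core facility and the male libraries at another on a different day, so that day, core and sex cannot be told apart in any value below. As only 1 library came from females, sexes were not tested against each other. Wherever 3 values are given, the first is that of the female library and the others are those of male libraries 1 and 2.

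The products of these genes act in the tear film and on other mucosal surfaces. Lactoferrin binds iron and so withholds it from bacteria, and lipocalin 2, made from *Lcn2*, captures the siderophores with which bacteria fetch iron. Peptidoglycan recognition protein 1 binds the bacterial cell wall. Surfactant protein D is a collectin, a soluble lectin that binds sugars on microbes, and DMBT1 is a secreted scavenger receptor protein that agglutinates bacteria and binds collectins. FCGBP is a mucin-like protein of mucus gels. In the LG, acinar cells make most of the tear protein, ducts carry and modify the fluid, and myoepithelial cells (MECs) contract around the acini. Lactoferrin and lipocalin 2 are also stored in the granules of neutrophils, so that these white blood cells had to be looked for beside the epithelium.

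On the mouse genome (GRCm38, the assembly also called mm10, with the GENCODE M21 annotation) *Ltf* (ENSMUSG00000032496) lies at chr9:111019271-111042767 on the plus strand and *Lcn2* (ENSMUSG00000026822) at chr2:32384633-32388252 on the minus strand. *Pglyrp1* (ENSMUSG00000030413) lies at chr7:18871331-18890459, *Fcgbp* (ENSMUSG00000047730) at chr7:28071236-28120862 and *Dmbt1* (ENSMUSG00000047517) at chr7:131032053-131121630, all on the plus strand. *Sftpd* (ENSMUSG00000021795) lies at chr14:41172214-41185149 on the minus strand. All 6 are protein-coding. The windows below follow the starts of RefSeq, and those of *Pglyrp1* and *Lcn2* lie within the spans given here, while that of *Ltf* ends within the span of its gene. *Dmbt1* overlaps *Fgfr2* on the opposite strand, and the other 5 overlap no annotated gene.

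Promoter sequences of 4 of the 6 genes, *Ltf*, *Pglyrp1*, *Fcgbp* and *Lcn2*, were at hand (RefSeq, GRCm38.p6), and *Dmbt1* and *Sftpd* are named only. They are shown because the first 3 genes turned out to share 1 cell class, described next, in which *Lcn2* did not have its highest level. The windows are chr9:111019142-111019291 (plus strand), chr7:18884540-18884689 (plus strand) and chr7:28071086-28071235 (plus strand), each the last 150 bases before the RefSeq start, and chr2:32387770-32387889 (minus strand), 120 bases that end 31 bases before the start. Each is written 5′ to 3′ on the strand of its gene, and the capitals mark the letters TATAA or ATAAA, searched on the gene's strand, and AGGTCA, the half-site of many nuclear receptors, searched on both strands.
Ltf: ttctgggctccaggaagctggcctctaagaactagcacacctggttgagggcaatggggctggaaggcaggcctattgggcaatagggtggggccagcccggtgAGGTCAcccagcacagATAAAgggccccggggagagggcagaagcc
Pglyrp1: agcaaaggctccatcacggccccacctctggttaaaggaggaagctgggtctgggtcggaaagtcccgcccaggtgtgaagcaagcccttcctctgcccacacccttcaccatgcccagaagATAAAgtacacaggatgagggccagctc
Fcgbp: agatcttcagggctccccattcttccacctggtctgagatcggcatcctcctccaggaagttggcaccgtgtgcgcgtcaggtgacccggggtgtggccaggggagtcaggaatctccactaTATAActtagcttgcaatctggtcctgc
Lcn2: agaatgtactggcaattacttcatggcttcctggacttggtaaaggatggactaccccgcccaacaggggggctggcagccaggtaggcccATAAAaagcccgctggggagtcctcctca
ATAAA began 30 bases before the start of *Ltf*, 28 before that of *Pglyrp1* and 59 before that of *Lcn2*, and TATAA 28 bases before that of *Fcgbp*. Of all 32851 RefSeq promoters, 9.97% held either of these 2 strings within 60 bases before the start on the gene's strand. AGGTCA stood 46 bases before the start of *Ltf*, and 14.0% of promoters held it on either strand within 250 bases before the start. These matches are letters in a window and no measurement of binding.

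RNA molecules were counted by unique molecular identifiers (UMIs), short tags of which each molecule carries its own, and summed per library and cell class. A level is given in CPM, the UMIs of the gene in every 1000000 UMIs of the class. Barcodes called as cells numbered 9737, 6422 and 6899, of which 7652, 5295 and 5397 were kept, with a median of 3252, 1884 and 1788 UMIs. Kept cells of different libraries shared 8 to 13 barcodes. Cells were clustered without the 6 genes and without the other genes listed below for their pathways, and “-like” marks a class named from marker genes. The Ltf+-like class held 146, 396 and 443 cells, 6.43, 14.8 and 14.6% of the named epithelial cells. Its name was checked on 10 markers other than *Ltf* (*Wfdc18*, *Cyp2f2*, *Cryab*, *Ccl9*, *Cxcl17*, *F5*, *Gsta3*, *Ces1d*, *Cyp2a5* and *Nupr1*), which summed to 34071, 49981 and 27195 CPM in it against 667 to 762 CPM in acinar-like cells, and none was at 0. Duct-like cells held 15932, 6130 and 6031 CPM of the same 10 markers. *Wfdc18* was most of both sums, with mean levels of 30123 CPM in Ltf+-like and 7527 CPM in duct-like cells. The 10 markers come from the study's own clusters of the same cells and are not independent evidence. All 6 neutrophil markers (*S100a8*, *S100a9*, *Retnlg*, *Csf3r*, *Cxcr2* and *Ly6g*) were at 0 UMIs in Ltf+-like cells of every library, where 3 UMIs would be 1.53, 1.52 and 0.958 CPM, and no Ltf+-like cell had a UMI of *Camp*, *Ngp*, *Mpo* or *Elane*. The class also held 33.1, 6.57 and 8.94 CPM of 6 macrophage markers and 922, 76.3 and 87.5 CPM of 7 duct markers, against 6283, 4648 and 4854 CPM of the latter in duct-like cells. None of either list's markers was at 0 in Ltf+-like cells.

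Leaving out doublets, barcodes that may hold more than 1 cell, touched these genes in the female library more than in the male ones. Of the 21669 *Ltf* UMIs in called cells of the female library, 12877 (59.4%) lay in cells left out as doublets, against 3.27 and 3.10% in the male libraries. Of 107 called cells with 10 or more *Ltf* UMIs in the female library, 48 were kept, 56 were left out as doublets and 3 failed the limits on UMIs, genes or mitochondrial share, whereas 281 of 301 and 299 of 325 were kept in the male libraries. The median depth of the kept and the left-out female cells with 10 or more *Ltf* UMIs was close, 9682.5 and 9570.5 UMIs. For *Dmbt1*, *Sftpd*, *Fcgbp* and *Pglyrp1*, 60.4, 51.4, 46.2 and 40.0% of the female UMIs were left out in the same way, and 10.8% for *Lcn2*. With no doublets left out and cells clustered and named anew, the Ltf+-like class held 185, 403 and 445 cells, of which 67, 12 and 10 had been left out before. In these 67 female cells the 10 Ltf+ markers summed to 139733 CPM against 33838 CPM in the other 118. Markers of macrophages (239 against 31.8 CPM), endothelial cells (89.5 against 18.1 CPM), fibroblasts (44.7 against 12.6 CPM) and MECs (126 against 43.8 CPM) were also higher in them, and whether they are doublets was not tested. Most levels in Ltf+-like and Car6hi-like cells are therefore given both ways, and other levels and the tests are with doublets left out unless stated. Female levels also moved in other classes. With no doublets left out, female *Lcn2* went from 0.977 to 6.42 CPM in myeloid-like cells. It went from 4.14 to 18.5 CPM in endothelial-like and from 9.21 to 22.2 CPM in fibroblast-like cells.

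**Figure D1:**
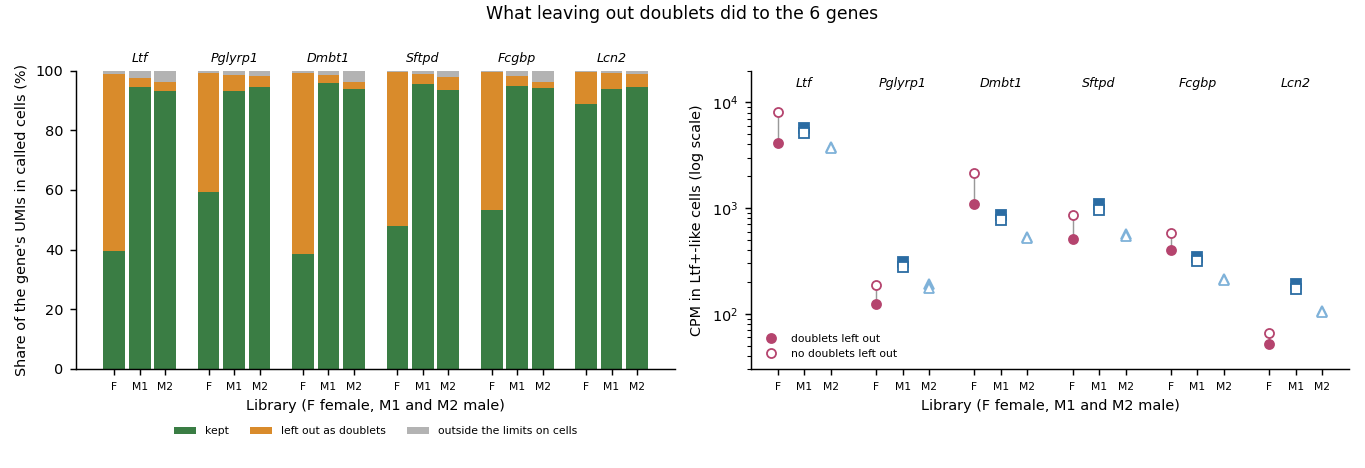
Left, share of each gene's UMIs in called cells (%, stacked bars) that was kept, left out as doublets or outside the limits on cells, for each library. Right, level in Ltf+-like cells (CPM, log scale) with doublets left out (filled) and with no doublets left out and cells clustered anew (open). For *Ltf*, 39.6% of the female UMIs were kept against 94.4 and 93.2% of the male ones, and the female level moved from 4165 to 8059 CPM.

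Of the 6 genes, 5, all but *Lcn2*, had their highest level in Ltf+-like cells, and in each of these 5 the lowest library of this class lay above every library of any other class. *Ltf* reached 4165, 5747 and 3744 CPM there (mean 4552 ± 1056, SD, n = 3 libraries), from 8184, 11379 and 11724 UMIs. The exact 95% Poisson intervals of these levels were 4075 to 4256, 5642 to 5853 and 3676 to 3812 CPM, and here and below such intervals cover counting error only. With no doublets left out the levels were 8059, 5186 and 3664 CPM. The next classes were Tfrchi-like cells, a class of acinar-like cells named from the transferrin receptor gene *Tfrc* and 6 other genes, with 20.9, 252 and 94.7 CPM, mural-like cells with 23.9, 264 and 21.6 CPM, and Car6hi-like cells, acinar-like cells with carbonic anhydrase 6, with 4.54, 165 and 104 CPM. If no doublets were left out, Car6hi-like cells came second by the mean over libraries, at 165, 232.4 and 270 CPM from 319, 206 and 174 UMIs, followed by endothelial-like, MEC-like, mural-like and Tfrchi-like cells with means of 121, 102, 93.1 and 90.9 CPM. The mural value of 264 CPM rests on 20 UMIs. With doublets left out, from the second class to the eleventh, neighbours in the order of *Ltf* levels overlapped between libraries. Acinar-like cells came last with 1.27, 6.20 and 9.25 CPM. Free RNA was not subtracted from these levels, and its part in their order was not tested. Against free RNA predicted from deeper uncalled barcodes (described below), *Ltf* in acinar-like cells was 1.23, 2.56 and 2.00 times. It was 1.19, 7.62 and 1.38 times in Tfrchi-like and 0.992, 0.709 and 0.505 times in lymphoid-like cells. By shallower uncalled barcodes the Tfrchi-like ratios were 0.419, 0.889 and 0.274 and the acinar-like ratios 0.433, 0.298 and 0.396.

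*Pglyrp1* reached 124, 311 and 191 CPM in Ltf+-like cells (mean 209 ± 94.9, SD, n = 3 libraries), from 243, 616 and 599 UMIs. It was followed by Car6hi-like cells with 18.7, 110 and 92.8 CPM, lymphoid-like cells with 32.9, 31.9 and 25.5 CPM and endothelial-like cells with 12.8, 18.1 and 14.8 CPM. Of these neighbours, only the Car6hi-like and lymphoid-like levels overlapped. With doublets left out, the order of these 2 classes in the female library was the opposite of that in the male libraries. If none were left out, Car6hi-like cells had 35.7, 116 and 147 CPM and lymphoid-like cells 22.7, 15.2 and 14.4 CPM, so that their order was the same in all 3 libraries, and the lymphoid-like levels then overlapped with the 11.1, 21.3 and 13.1 CPM of endothelial-like cells.

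*Dmbt1* reached 1097, 863 and 528 CPM in Ltf+-like cells (mean 829 ± 286, SD, n = 3 libraries), from 2155, 1709 and 1655 UMIs, and 2156, 777 and 521 CPM with no doublets left out. With doublets left out no other class had more than 32.4 CPM in any library, and the Tfrchi-like, endothelial-like, mural-like and MEC-like levels that followed overlapped from one class to the next. With none left out, Car6hi-like cells came second with 64.7, 28.2 and 7.75 CPM, of which the female value rests on 125 UMIs. *Sftpd* reached 507, 1097 and 569 CPM (mean 724 ± 324, SD, n = 3 libraries), from 996, 2172 and 1781 UMIs. By the mean over libraries its second class was Car6hi-like cells with 8.51, 198 and 161 CPM (37.2, 227 and 223 CPM with no doublets left out) and the next duct-like cells with 46.8, 24.3 and 25.7 CPM, which were above the Car6hi-like cells in the female library. *Fcgbp* reached 399, 346 and 212 CPM (mean 319 ± 96.7, SD, n = 3 libraries), from 785, 685 and 663 UMIs, and its next class was Tfrchi-like cells, where 16 of the 17 UMIs came from male library 1. With doublets left out, *Dmbt1* and *Fcgbp* were at their highest of the 3 libraries in the female one, and *Pglyrp1* and *Sftpd* at their lowest. With no doublets left out *Sftpd* stood at 864, 964 and 545 CPM, *Fcgbp* at 582, 316 and 208 CPM and *Pglyrp1* at 187, 275 and 174 CPM, so that the female level of *Pglyrp1* and *Sftpd* then lay between the male ones.

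**Figure D2:**
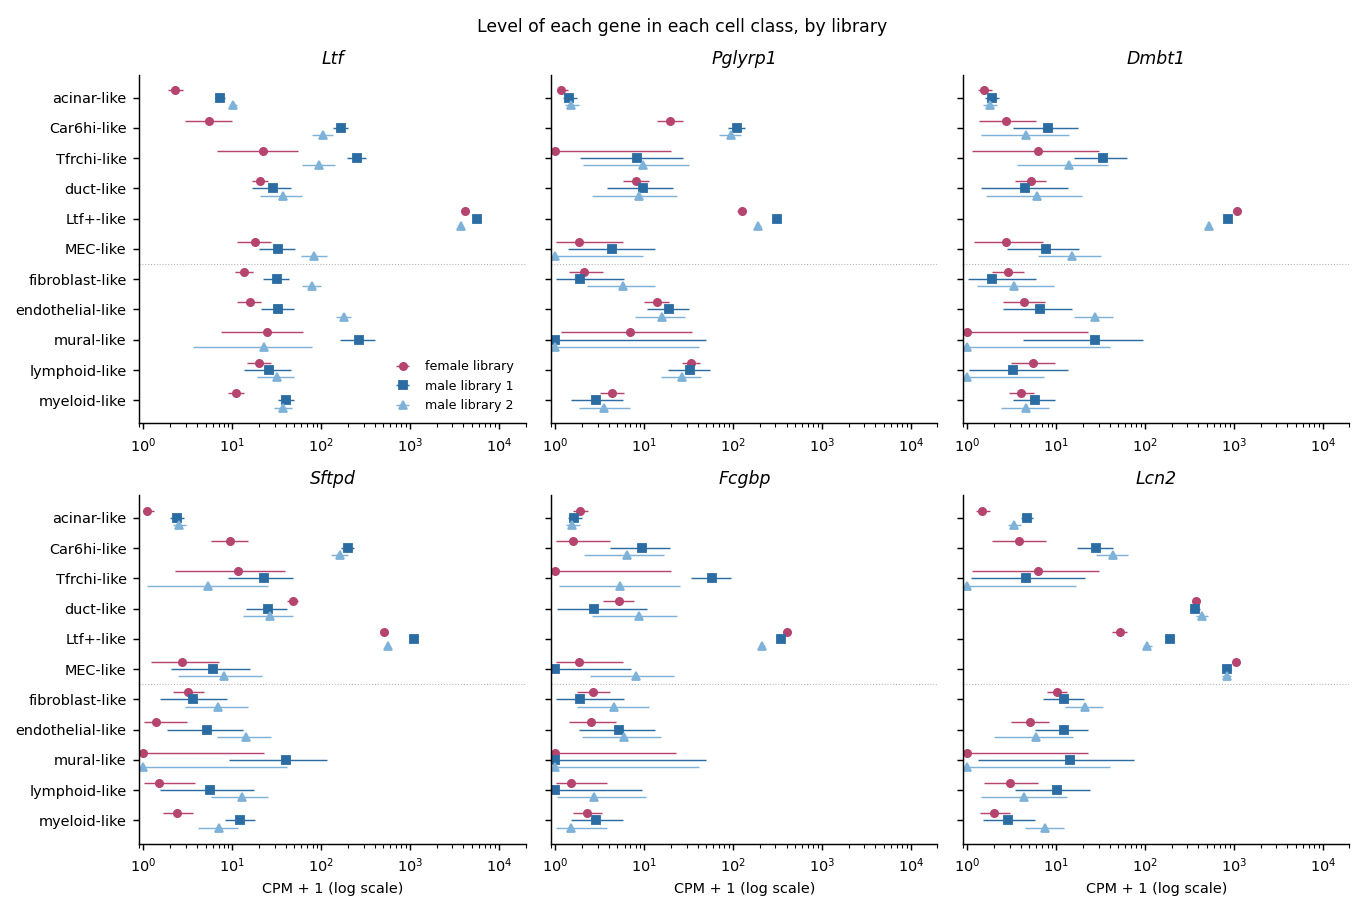
Level of each gene (CPM + 1, log scale) in 11 named cell classes, 1 point per library with its exact 95% Poisson interval as a bar. The dotted line divides epithelial from non-epithelial classes. *Ltf*, *Pglyrp1*, *Dmbt1*, *Sftpd* and *Fcgbp* are highest in Ltf+-like cells in all 3 libraries, and *Lcn2* is highest in MEC-like cells, with 1063, 845 and 827 CPM.

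*Lcn2* had another distribution. It reached 1063, 845 and 827 CPM in MEC-like cells (mean 911 ± 131, SD, n = 3 libraries), from 1254, 505 and 350 UMIs. Duct-like cells followed with 371, 364 and 436 CPM (mean 391 ± 39.6, SD, n = 3 libraries) and Ltf+-like cells with 51.4, 191 and 106 CPM (mean 116 ± 70.3, SD, n = 3 libraries), and these 3 classes did not overlap with each other. Of cells thinned to 1000 UMIs, 54.5, 50.3 and 40.5% of MEC-like and 27.1, 26.2 and 29.6% of duct-like cells had an *Lcn2* UMI, against 0.171, 0.460 and 0.286% of acinar-like cells, taken as a class that should lack it. Median depths before thinning were 3453.5, 1742 and 1363.5 UMIs in MEC-like cells, and thinning left out 2, 7 and 32 of them. Without thinning the shares were 87.0, 68.0 and 54.4% of MEC-like, 51.5, 35.0 and 33.0% of duct-like and 1.69, 5.36 and 3.26% of acinar-like cells. Within the duct-like class *Lcn2* differed between clusters. The cluster of 359, 160 and 108 cells had 593, 545 and 797 CPM, whereas the clusters of 530, 128 and 127 cells and of 154, 41 and 38 cells had 263, 194 and 176 CPM and 180, 153 and 254 CPM, so that the first did not overlap with the others. Its leading genes were *Gadd45b*, *Smoc2*, *Mt2*, *Cxcl1*, *Icam1* and *Atf3*, of which several are induced by stress or inflammation, and their part in the *Lcn2* level was not tested.

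As a share of all UMIs of a gene in kept cells, Ltf+-like cells held 94.9 ± 0.701% for *Ltf*, 96.2 ± 0.184% for *Dmbt1* and 93.2 ± 1.80% for *Fcgbp* (SD, n = 3 libraries). The share was lower and more variable for *Sftpd*, with 80.8% in the female library and up to 90.5% in the males, and for *Pglyrp1*, with 55.1, 82.5 and 85.0%. In the female library duct-like cells held 15.4% of the *Sftpd* UMIs and lymphoid-like cells 14.7% of the *Pglyrp1* UMIs. Of *Lcn2*, Ltf+-like cells held 3.41, 30.2 and 33.5%, MEC-like cells 39.4 ± 3.59% and duct-like cells 50.9% in the female library and at least 16.8% in the males. Such shares move with the number of cells of each class, and the female library had 1043 duct-like cells against 329 and 273. The 6 genes together made up 0.634, 0.856 and 0.535% of all UMIs of Ltf+-like cells, 0.108, 0.0891 and 0.0938% of those of MEC-like cells and at most 0.0015% of those of acinar-like cells.

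**Figure D3:**
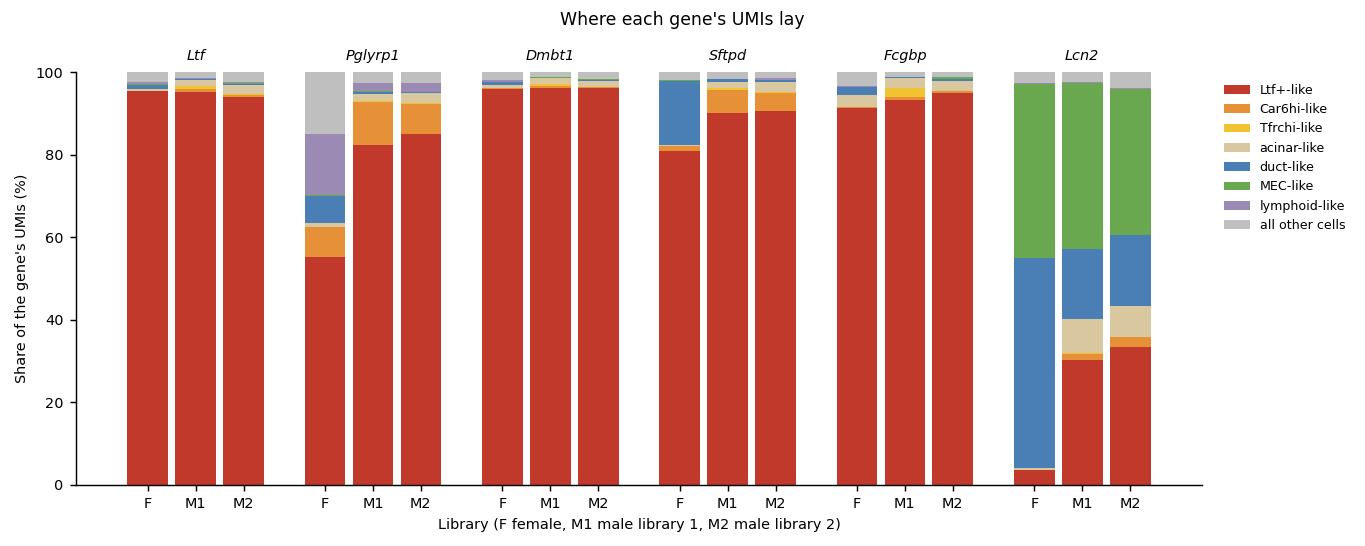
Share of each gene's UMIs in kept cells (%, stacked bars) that lay in each cell class, 1 bar per library. Ltf+-like cells hold most UMIs of *Ltf*, *Dmbt1*, *Fcgbp*, *Sftpd* and *Pglyrp1* in every library, down to 55.1% for *Pglyrp1* in the female library, and 3.41 to 33.5% of those of *Lcn2*.

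To ask whether these differences exceeded the spread between libraries, UMIs summed per library were tested in 8 comparisons with the quasi-likelihood test of edgeR, library as a block, with p adjusted by Benjamini-Hochberg over all genes tested. Classes were defined on the same cells, though without the 6 genes. The study had already reported all of them but *Lcn2* as markers of its Ltf+ cluster of these cells, and *Lcn2* in MECs and some duct cells. Calls that follow those reports are therefore not independent evidence. Against the other named epithelial cells, 5 of the 6 genes were higher in Ltf+-like cells, where 7.08% of the 10629 genes tested were higher and 7.62% lower (14.7% in all). The rest held 4.22, 13.0 and 12.7 CPM of *Ltf*, and the log2 fold change was 7.83 ± 0.49 (SE, adjusted p = 3.75e-05). *Dmbt1* was higher by 8.22 ± 0.37 (SE, adjusted p = 7.41e-06), *Fcgbp* by 7.005 ± 0.28 (SE, adjusted p = 2.45e-06), *Sftpd* by 5.79 ± 0.19 (SE, adjusted p = 1.81e-06) and *Pglyrp1* by 5.23 ± 0.19 (SE, adjusted p = 1.81e-06). The 5 calls held in all 18 fits that were run. Fold changes are relative to the trimmed mean of M-values (TMM), and scaling to total UMIs moved the median of all genes by 1.09 on the log2 scale. The rest consists mostly of UMIs of acinar-like cells, 90.4 to 91.0% of whose UMIs came from 123 genes of tear-product families.

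*Lcn2* was not called in this comparison (log2 fold change 0.52 ± 0.47, SE, edgeR adjusted p = 0.511). Its ratio of CPM in Ltf+-like cells to the rest was 0.644 in the female library and 6.94 and 5.60 in the male libraries. Without the female library it was called at 1.34, scaled to total UMIs at 1.66 (edgeR adjusted p = 7.21e-05), and without male library 2 its value was -0.061. The fit without the female library rests on male libraries 1 and 2 only, too few pools to measure their spread. In the rest, *Lcn2* stood at 79.8 CPM in the female library and 27.5 and 18.9 CPM in the males, and duct-like cells were 45.9, 12.3 and 8.98% of the named epithelial cells.

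Against the other epithelial cells, *Lcn2* was higher in MEC-like cells by 2.85 ± 0.21 on the log2 scale (SE, edgeR adjusted p = 3.9e-05) and the other 5 genes were lower, by 5.37 to 5.97, where 14.3% of genes were higher and 16.5% lower (30.8% in all). In duct-like cells *Lcn2* was higher by 1.36 ± 0.22 (SE, edgeR adjusted p = 9.87e-05) and the other 5 genes were lower, where 16.0% of genes were higher and 20.4% lower (36.5% in all). The log2 fold changes in duct-like cells were -5.92 for *Ltf*, -6.33 for *Dmbt1*, -4.94 for *Fcgbp*, -3.07 for *Pglyrp1* and -2.73 for *Sftpd*. The Ltf+-like cells, which hold most UMIs of these 5 genes, are part of the other cells in both comparisons. The lower values therefore largely follow from the make-up of the other cells and show no lack of the 5 genes in MEC-like or duct-like cells. By the mean over libraries, free RNA not subtracted, all 5 were higher in both classes than in acinar-like cells. *Sftpd* had 32.3 CPM in duct-like and *Ltf* 43.8 CPM in MEC-like cells, against 1.01 and 5.57 CPM in acinar-like cells. Scaling to total UMIs moved the median of all genes by 2.34 in the duct comparison and 2.24 in the MEC comparison, and on that scale the calls for *Pglyrp1* (-0.76, edgeR adjusted p = 0.0524) and *Sftpd* (-0.47, edgeR adjusted p = 0.108) in duct-like cells were lost. The call for *Sftpd* was also lost with more doublets left out (-1.43, edgeR adjusted p = 0.227). In CPM, *Sftpd* in duct-like cells was 1.504 times the level of the rest in the female library and 0.329 and 0.473 times in the male libraries.

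**Figure D4:**
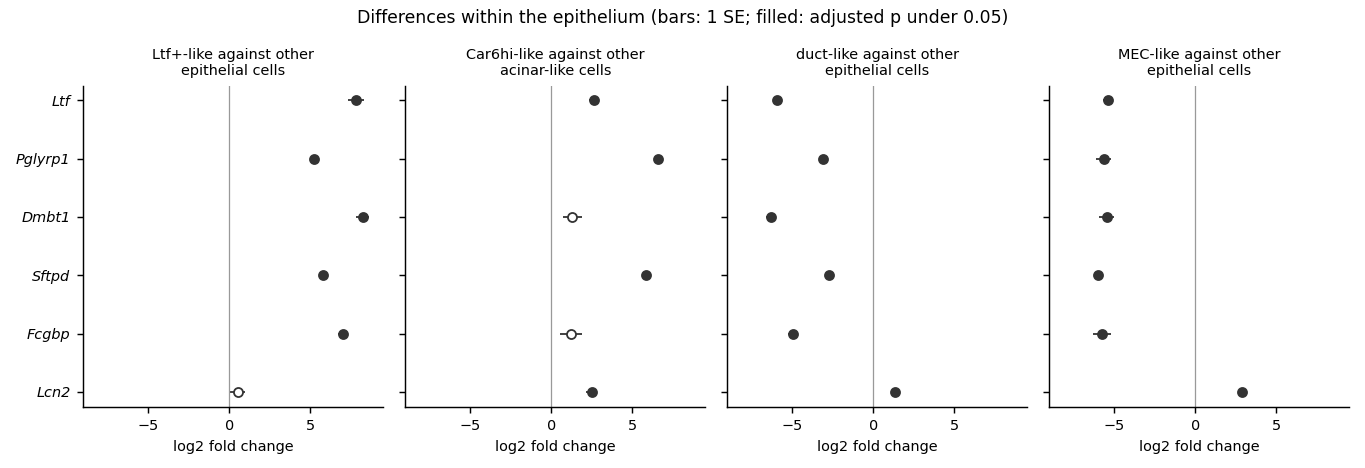
Log2 fold change (x axis) of each gene in the 4 comparisons within the epithelium, with 1 SE as the bar, filled where the edgeR adjusted p was under 0.05 and open otherwise. In the Ltf+-like comparison 5 genes lie between 5.23 and 8.22 and *Lcn2* at 0.52 is not called, and in the duct-like and MEC-like comparisons *Lcn2* lies above 0 and the other 5 genes below. The other side of the duct-like and MEC-like comparisons includes the Ltf+-like cells, which hold most UMIs of those 5 genes.

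The Ltf+-like class joined a larger cluster of 77, 325 and 316 cells and a smaller one of 69, 71 and 127 cells, and the genes differed between them. *Ltf* stood at 5447, 8621 and 8657 CPM in the larger cluster and 176, 663 and 426 CPM in the smaller. *Dmbt1* had 1442, 1297 and 1249 CPM and *Fcgbp* 522, 524 and 494 CPM in the larger cluster, where their spread between libraries was small (SD 101 and 17.2 CPM, n = 3). *Sftpd* had 655, 1637 and 1327 CPM, *Pglyrp1* 158, 468 and 430 CPM and *Lcn2* 57.8, 293 and 245 CPM there, lowest in the female library each time. In the smaller cluster the means of *Dmbt1*, *Sftpd*, *Fcgbp*, *Pglyrp1* and *Lcn2* were 53.9, 81.8, 23.0, 26.8 and 18.1 CPM. Tear-product genes made up 79.6, 87.5 and 90.8% of the UMIs of the smaller cluster and 63.1, 50.1 and 57.4% of those of the larger, and the part of free RNA from broken acinar cells in this was not tested. A wider doublet limit would leave out 52 of the 77 female cells of the larger cluster, and 14 of 325 and 20 of 316 male ones.

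Within the larger cluster the genes were not found in the same share of cells. After each cell was thinned to 1000 UMIs, 57.1, 89.5 and 90.6% of its cells had a UMI of *Ltf*, 45.5, 83.3 and 80.6% of *Sftpd*, 45.5, 49.7 and 49.7% of *Dmbt1*, 35.1, 34.9 and 31.9% of *Fcgbp*, 19.5, 42.6 and 45.5% of *Pglyrp1* and 10.4, 13.0 and 17.1% of *Lcn2*. In acinar-like cells thinned alike, with median depths of 23205, 10302 and 9443.5 UMIs against 7365, 2507 and 2213.5 UMIs in the larger cluster before thinning, *Ltf* was found in 0.513, 0.766 and 2.23%. Over the whole Ltf+-like class the share with *Ltf* was 35.2% (95% exact binomial interval 27.4 to 43.5%), 83.8% (79.8 to 87.4%) and 76.1% (71.7 to 80.0%), and 57.9, 84.6 and 77.3% with no doublets left out. Without thinning it was 40.4, 90.2 and 88.7%, against 5.73, 9.96 and 12.5% of acinar-like cells. Thinning left out 1, 6 and 17 cells of the class that had fewer than 1000 UMIs. At least 2 of the 5 genes *Ltf*, *Pglyrp1*, *Dmbt1*, *Sftpd* and *Fcgbp* were found in 51.9, 88.3 and 89.0% of the cells of the larger cluster.

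Pairs of genes in single cells of this cluster are a description, since cells of 1 library are not replicates. *Dmbt1* was found in 92.6, 70.8 and 72.7% of the cells with *Fcgbp* and in 20.0, 38.4 and 38.9% of those without. It was found in 77.3, 53.8 and 54.1% of the cells with *Ltf* and in 3.03, 14.7 and 6.90% of those without. *Sftpd* was found in 80.0, 90.6 and 87.9% of the cells with *Pglyrp1* and in 37.1, 78.0 and 74.6% of those without. *Dmbt1* and *Pglyrp1* went the other way in the male libraries only, with *Dmbt1* in 41.3 and 46.8% of cells with *Pglyrp1* and in 55.9 and 52.1% of those without, against 66.7 and 40.3% in the female library.

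Car6hi-like cells, of which there were 86, 143 and 111, came second for *Pglyrp1* and *Sftpd* by the mean over libraries, though with doublets left out not in the female library, where lymphoid-like cells held more *Pglyrp1* and duct-like cells more *Sftpd*. Against other acinar-like cells, 4 of the 6 genes were higher, where 2.95% of genes were higher and 2.72% lower (5.67% in all). *Pglyrp1* was higher by 6.60 ± 0.24 on the log2 scale (SE, edgeR adjusted p = 9.96e-12), from 18.7, 110 and 92.8 CPM against 0.144, 0.488 and 0.574 CPM. *Sftpd* was higher by 5.82 ± 0.23 (SE, edgeR adjusted p = 2.2e-11), *Ltf* by 2.64 ± 0.28 (SE, edgeR adjusted p = 6.47e-06) and *Lcn2* by 2.49 ± 0.35 (SE, edgeR adjusted p = 0.000169). Against free RNA predicted from deeper uncalled barcodes, *Ltf* in Car6hi-like cells was 1.93, 15.4 and 6.34 times. By shallower uncalled barcodes it was 0.682, 1.79 and 1.25 times, and with that profile subtracted too few UMIs were left for a test. Median depths were 14528.5, 2712 and 2913 UMIs in Car6hi-like and 23205, 10302 and 9443.5 UMIs in acinar-like cells. *Dmbt1* (1.30, edgeR adjusted p = 0.261) and *Fcgbp* (1.22, edgeR adjusted p = 0.421) did not pass, but both passed scaled to total UMIs, which moved the median of all genes by 0.88, and with no doublets left out (4.31 and 2.91), and *Fcgbp* also passed without the female library (2.04, edgeR adjusted p = 0.0466). The class joined a cluster of 21, 79 and 66 cells, in which *Dcpp1* was among the leading genes, and a cluster of 65, 64 and 45 cells led by *Chia1*. *Sftpd* had 21.9, 274 and 331 CPM and *Pglyrp1* 45.5, 154 and 183 CPM in the first, and 0.889, 19.1 and 16.5 CPM and 3.56, 4.78 and 16.5 CPM in the second. The first cluster held 1.57, 229 and 214 CPM of *Ltf*, from a single UMI in the female library, and these values by cluster are with doublets left out. Over the whole class the female library had 8 UMIs of *Ltf* with doublets left out and 319 with none left out. Car6hi-like cells also held 6670, 15402 and 10651 CPM of the 10 Ltf+ markers, most of it *Wfdc18*, against 667 to 762 CPM in acinar-like cells.

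**Figure D5:**
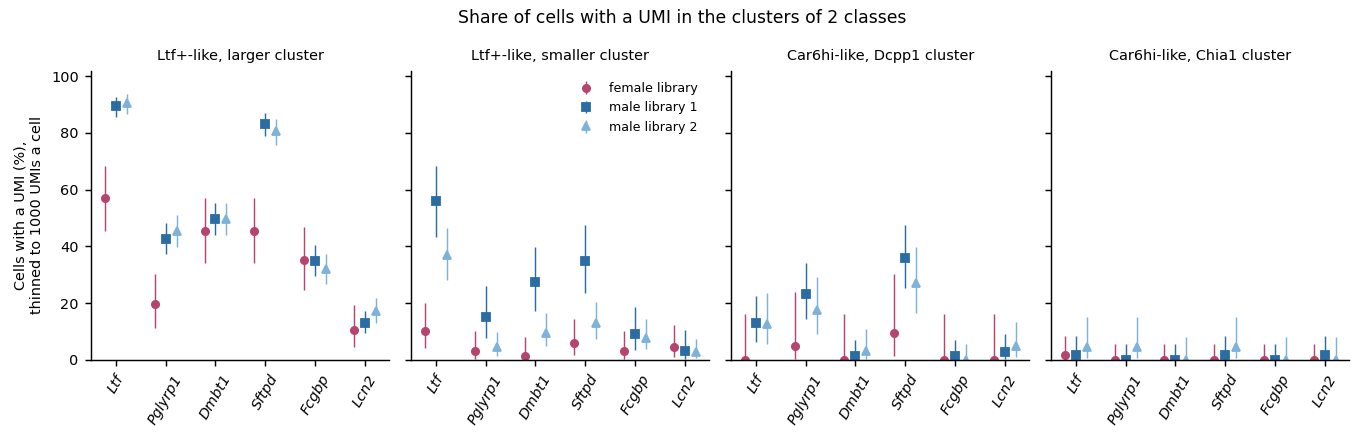
Share of cells with a UMI of each gene (%, cells thinned to 1000 UMIs, bars exact 95% binomial intervals) in the 2 clusters of the Ltf+-like class and the 2 clusters of the Car6hi-like class, 1 point per library. *Ltf* was found in 57.1 to 90.6% of the larger Ltf+-like cluster and in 10.3 to 56.1% of the smaller, and *Sftpd* in 9.52 to 35.9% of the *Dcpp1* cluster of Car6hi-like cells and in 0 to 4.44% of the *Chia1* cluster.

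*Sftpd* was also found in duct-like cells. It had 46.8, 24.3 and 25.7 CPM there, from 190, 14 and 10 UMIs. Of the 1043, 329 and 273 duct-like cells, 14, 0 and 0 had 3 or more *Sftpd* UMIs. Their median depths were 3730, 1683 and 1307 UMIs, so that this limit was harder to reach in the male libraries. A profile of free RNA, taken from deeper uncalled barcodes (up to 1000 UMIs), which were chosen after seeing the data, and scaled to the tear-product UMIs of non-epithelial cells, predicts 4.02, 3.56 and 4.02 *Sftpd* UMIs in these cells. The observed counts were 47.2, 3.93 and 2.49 times as many. By the profile of uncalled barcodes with 10 to 100 UMIs, which holds 1, 9 and 10 UMIs of *Sftpd*, they were 8.02, 0.93 and 0.466 times the prediction, so that the male counts lay above the prediction by the deeper profile only. The clusters of 530, 128 and 127 cells and of 154, 41 and 38 cells held 61.5, 46.2 and 49.5 CPM and 80.0, 41.8 and 0 CPM, and the cluster with the most *Lcn2* held 13.6, 3.47 and 6.37 CPM. The value of 0 comes from 51225 UMIs and allows up to 3 UMIs, 58.6 CPM.

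Outside the epithelium *Pglyrp1* was higher in lymphoid-like cells than in the other non-epithelial cells, by 3.18 ± 0.31 on the log2 scale (SE, edgeR adjusted p = 1.74e-09), where 14.4% of genes were higher and 23.2% lower (37.6% in all). Most of it lay in NK-like cells, with 71.2, 48.3 and 52.3 CPM from 60, 8 and 13 UMIs. In macrophage-like cells it had 0.363, 0 and 0.76 CPM, where 0 UMIs allow up to 2.36 CPM. Monocyte-like cells had 26.3, 2.38 and 9.48 CPM from 8, 1 and 3 UMIs and mast-like cells 11.0, 8.06 and 3.59 CPM from 14, 3 and 1 UMIs. *Pglyrp1* UMIs in lymphoid-like cells were 34.7, 10.4 and 6.53 times those predicted from the deeper uncalled barcodes. The profile of 10 to 100 UMIs holds 7 *Pglyrp1* UMIs in male library 1, where the ratio was 1.34, and none in the other libraries. With that profile subtracted the call in lymphoid-like cells held (3.39, edgeR adjusted p = 0.00502). In endothelial-like cells *Pglyrp1* was higher by 0.99 ± 0.31 (SE, edgeR adjusted p = 0.0113), where 18.3% of genes were higher and 23.4% lower (41.7% in all), and the call was lost without male library 1 (0.79, edgeR adjusted p = 0.0974), with the profile of 10 to 100 UMIs subtracted (0.73, edgeR adjusted p = 0.334) and by DESeq2. It was lower in fibroblast-like cells (-3.14 ± 0.44, SE, edgeR adjusted p = 5.57e-05) and in myeloid-like cells (-1.46 ± 0.34, SE, edgeR adjusted p = 0.00325), where 29.2 and 26.6% of genes were lower and 23.8 and 24.8% higher (53.0 and 51.4% in all). With the profile of 10 to 100 UMIs subtracted the call in fibroblast-like cells was lost (-2.76, edgeR adjusted p = 0.0642) and too few UMIs were left in the myeloid comparison for a test, whereas the endothelial, fibroblast and myeloid calls held with that of the deeper uncalled barcodes.

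*Lcn2* was higher in fibroblast-like cells by 1.41 ± 0.30 (SE, edgeR adjusted p = 0.00156), at 9.21, 11.4 and 20.2 CPM, which is 11.3, 3.62 and 6.31 times the prediction from the deeper uncalled barcodes. The profile of 10 to 100 UMIs holds no *Lcn2* UMI in the female library, and by it the male counts were 0.356 and 0.556 times the prediction. With it subtracted too few UMIs of *Lcn2*, *Ltf* and *Dmbt1* were left in the fibroblast comparison, and of *Lcn2* in the myeloid one, for a test, so that these calls rest on values without that subtraction. With the deeper profile subtracted the *Lcn2* call in fibroblast-like cells held (2.07, edgeR adjusted p = 0.00153). In 6, 0 and 2 of these cells 3 or more UMIs of *Lcn2* were counted. It was lower in myeloid-like cells (-1.40 ± 0.40, SE, edgeR adjusted p = 0.0112), a call that was lost with no doublets left out (-0.0074) and by DESeq2 (-1.48, adjusted p = 0.069). *Ltf* was lower in fibroblast-like cells by 0.47 on the log2 scale (edgeR adjusted p = 0.0452), a call that was lost without male library 1 (-0.34, edgeR adjusted p = 0.272) and scaled to total UMIs (-0.013, edgeR adjusted p = 0.958), and *Dmbt1* was lower there by 1.73 (edgeR adjusted p = 0.00502). *Ltf* in endothelial-like cells (0.60, edgeR adjusted p = 0.0891) and *Dmbt1* (1.17, edgeR adjusted p = 0.0628) did not pass with all libraries, and both passed without the female library (0.97 and 2.03), while *Ltf* was at -0.24 without male library 2. No other value of *Ltf*, *Dmbt1*, *Sftpd* or *Lcn2* was called outside the epithelium with all libraries, and *Fcgbp* had too few UMIs there to be tested. *Sftpd* passed without the female library in fibroblast-like cells (-1.56, edgeR adjusted p = 0.00843) and without male library 2 in myeloid-like cells (1.30, edgeR adjusted p = 0.0435). *Ltf* in the 5 non-epithelial classes was 0.46 to 8.42 times the prediction from the deeper uncalled barcodes, against 1164, 545 and 321 times in Ltf+-like cells. By the profile of 10 to 100 UMIs it was 0.0827 to 0.982 times, against 411, 63.5 and 63.5 times. Scaling to total UMIs moved the median of all genes by 0.49, 0.23, -0.42 and -0.54 in the fibroblast, endothelial, lymphoid and myeloid comparisons.

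Neutrophils, another known source of *Ltf* and *Lcn2*, were looked for in all kept cells. Of these, 1 lymphoid-like female cell had 3 or more of the 6 neutrophil markers, and it held *Lcn2* and no *Ltf*. Whether it held *Pglyrp1* was not looked at, and barcodes outside the limits on cells were not searched. The only cell with a UMI of *Camp*, *Ngp*, *Mpo* or *Elane* was 1 fibroblast-like female cell.

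The genes whose level was most alike, by Pearson's r of log2(CPM + 10) over 36 sums of 12 classes and 3 libraries and among 10399 genes, were partly the same for several members. Sums of 1 library share its depth and its free RNA, so r is a description. For *Ltf* they were *Dmbt1* (0.94), *Fcgbp* (0.90), *Sftpd* (0.88), *F5* (0.87) and *Tac1* (0.83), for *Dmbt1* they were *Fcgbp* (0.96), *Ltf* (0.94), *F5* (0.94), *Tac1* (0.91) and *Sult1d1* (0.90), and for *Fcgbp* *Dmbt1* (0.96), *F5* (0.95), *Tac1* (0.91), *Ltf* (0.90) and *Sult1d1* (0.90). *F5* encodes coagulation factor V and is one of the naming markers of the class, and *Tac1* encodes the precursor of substance P. *Sftpd* was most like *Krt18* (0.91), *Cxcl17* (0.90), *Pdzk1ip1* (0.89), *Wfdc18* (0.88) and *Ltf* (0.88). *Pglyrp1* was most like *Bspry* (0.90), *Sftpd* (0.85), *Kit* (0.83), *F5* (0.80) and *Pdzk1ip1* (0.80). *Kit*, a receptor tyrosine kinase, had mean levels of 36.4 CPM in Ltf+-like, 32.7 CPM in Car6hi-like and 16.4 CPM in lymphoid-like cells. *Lcn2* was most like *Nrtn* (0.94), *C1qtnf4* (0.94), *Urah* (0.92), *9330188P03Rik* (0.92) and *Tent5b* (0.91), and its r with the other 5 members was 0.18 to 0.37. *Nrtn*, which encodes the growth factor neurturin, had mean levels of 245 CPM in MEC-like and 40.9 CPM in duct-like cells.

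Of 62 other genes of these pathways, in 7 lists, 31 had enough UMIs to be tested in the Ltf+-like comparison, 9 were higher and 3 lower, against the 7.08 and 7.62% of all genes. The median log2 fold change of the 31 was 0.09 and that of all genes -0.02. Of 7 genes of iron and siderophore handling all were tested, 3 were higher and 1 lower. *Fth1*, the heavy chain of the iron store ferritin, had 1326, 2223 and 1177 CPM against 535, 270 and 246 CPM in the rest (log2 fold change 1.10 ± 0.21, SE, edgeR adjusted p = 0.00836). *Lrp2*, the endocytic receptor megalin, which takes up lactoferrin and lipocalin 2 among others, had 16.3, 29.8 and 16.0 CPM against 4.63, 0.949 and 0.794 CPM (2.51 ± 0.41, SE, edgeR adjusted p = 0.00502). *Slc40a1*, the iron exporter ferroportin, was higher on 4, 4 and 5 UMIs only, against 10, 0 and 0 UMIs in the rest (3.53, edgeR adjusted p = 0.0352). *Lrp1*, a related receptor, was lower (-2.69 ± 0.40, SE, edgeR adjusted p = 0.00307), on 5, 1 and 1 UMIs only against 330, 47 and 31 UMIs in the rest.

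Of the 6 collectin and scavenger partners, 4 were tested and 2 were higher. *Cd14*, a co-receptor for bacterial lipopolysaccharide to which surfactant protein D binds, had 38.7, 26.3 and 12.5 CPM against 5.20, 0.393 and 0.428 CPM (3.17 ± 0.38, SE, edgeR adjusted p = 0.00119). *Lgals3*, galectin 3, had 24.4, 5.56 and 4.15 CPM against 1.58, 0.851 and 0.978 CPM (2.05 ± 0.46, SE, edgeR adjusted p = 0.0177). Macrophages express both genes, and the part of the macrophage markers given above in these values was not tested, nor was that of the duct markers in *Cd14*. *Cd14* in duct-like cells had 42.6, 13.9 and 18.0 CPM.

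Of 9 mucus components 2 were tested. *Muc20*, a membrane mucin, was higher (6.74, edgeR adjusted p = 0.00108) on 14, 2 and 3 UMIs against 1, 0 and 0 in the rest, so that the size of this fold change depends on the prior count, and *Agr2*, an enzyme of mucin folding, was lower (-1.07, edgeR adjusted p = 0.00965), but at 0.029 scaled to total UMIs. Of 12 other secreted antimicrobials 4 were tested. *Slpi*, a protease inhibitor of mucosal fluids, was higher (4.56, edgeR adjusted p = 0.00177) on 4, 6 and 11 UMIs against 2, 1 and 2, and *Wfdc12* was lower (-1.60, edgeR adjusted p = 0.00306), though not scaled to total UMIs (-0.49, edgeR adjusted p = 0.079). *Wfdc12* stood at 102, 3348 and 3143 CPM in Ltf+-like cells and 131, 5153 and 3872 CPM in acinar-like cells, far lower in the female library than in the male ones. Of 13 regulators 12 were tested and 2 were higher, the epithelial transcription factor genes *Ehf* (1.04 ± 0.17, SE, edgeR adjusted p = 0.00468) and *Elf3* (0.85 ± 0.18, SE, edgeR adjusted p = 0.0137). *Ehf* stood at 244, 301 and 173 CPM in Ltf+-like and 469, 184 and 210 CPM in duct-like cells, and *Elf3* at 39.2, 22.2 and 15.3 CPM and 108, 55.5 and 46.2 CPM, and the part of the duct markers given above in them was not tested. Of 7 bacterial cell wall genes 2 were tested and none was called, and none of 8 neutrophil granule genes had enough UMIs to be tested. No UMI was found for 16 of the 62 genes in kept cells, where 3 UMIs would be 0.0542, 0.0797 and 0.0727 CPM, among them the goblet cell genes *Muc5b*, *Tff2*, *Tff3* and *Clca1* and the peptidoglycan recognition gene *Pglyrp3*.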

How the data were processed

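Single cells of 6 pooled lacrimal glands of 3 mice a library were sequenced on the 10x Genomics platform. The values deposited by the authors are counts of UMIs for every gene in every barcode, made with Cell Ranger on mm10, given both for called cells and for all barcodes. The headers name version 6.1.2 for called cells and an earlier version for all barcodes, and barcodes in both sets had the same counts. The authors' later steps (removal of free RNA, doublet calls and cell filters) are not in these counts. Here, called cells with over 500 UMIs, over 200 genes and under 15% mitochondrial UMIs were kept, and the highest Scrublet doublet scores (scanpy 1.11.5) were left out at 0.8% per 1000 cells, 646, 287 and 315 cells. Cells were normalized and integrated with sctransform 0.4.2 and Seurat 5.3.0 (3000 features, 30 dimensions, resolution 1) without 310 genes, which include the 6 genes and the 62 pathway genes, and clusters were named from marker lists. The 6 genes, the marker lists and the pathway lists were chosen with earlier results of these data known, and the Ltf+ markers are the study's own.

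Counts summed per library and class were tested with edgeR 4.0.16 (R 4.3.3), the quasi-likelihood test, TMM scaling and a filter on low counts. Library was the block, since both sides of a comparison come from the same cell suspension. A call is an adjusted p (Benjamini-Hochberg over all genes tested) under 0.05. Named genes are the 6 members, the pathway genes called in the Ltf+-like comparison and the 5 genes most like each member, and the lead genes of clusters and the pathway genes without UMIs were named after their values were seen. Each library is 1 pool, so p-values measure the spread between 3 pools. Alternatives covered scaling by total UMIs, no filter on low counts, no block, each library left out, limits on cells, doublets, clustering, thinning, free RNA and DESeq2 1.42.0. Free RNA was taken from uncalled barcodes with 10 to 100 UMIs. A second profile, from deeper uncalled barcodes (up to 1000 UMIs), and a repeat of the whole clustering with no doublets left out were chosen after seeing the data. Scripts were tested on simulated data. Total UMIs of called cells were 63066640, 40609390 and 44661762.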

Additional observations from a re-analysis of the deposited data

Results flagged for a closer look

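In 3 comparisons the female library moved one way and both male libraries the other, which was not tested because there was 1 female library. The ratio of *Lcn2* CPM in Ltf+-like cells to that in other epithelial cells was 0.644 in the female library and 6.94 and 5.60 in the male libraries. The ratio of *Sftpd* CPM in duct-like cells to that in other epithelial cells was 1.504 in the female library and 0.329 and 0.473 in the male libraries. The Ltf+-like cells, which hold most *Sftpd*, are part of the other epithelial cells, and they were 6.43, 14.8 and 14.6% of the named epithelial cells. The ratio of *Ltf* CPM in lymphoid-like cells to that in other non-epithelial cells was 1.62 in the female library and 0.627 and 0.436 in the male libraries. The lymphoid-like cells held 38, 11 and 18 UMIs of *Ltf*, against 38.3, 15.5 and 35.6 predicted from the deeper uncalled barcodes. These counts were 0.992, 0.709 and 0.505 times the prediction, so that none lay above it. The part of free RNA in this ratio was not tested. Epithelial cells that no marker list named, and which no comparison used, held 23, 13 and 53 UMIs of *Ltf* in 303, 112 and 136 cells, or 18.8, 21.4 and 41.0 CPM.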

How the results depend on the processing

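In the Ltf+-like comparison the direction and the call of *Ltf*, *Pglyrp1*, *Dmbt1*, *Sftpd* and *Fcgbp* held in all 18 fits, as did those of *Lcn2* in MEC-like and duct-like cells. Leaving out 1 library each gave log2 fold changes in Ltf+-like cells of 7.20 to 8.18 for *Ltf*, 5.13 to 5.33 for *Pglyrp1*, 7.70 to 8.52 for *Dmbt1*, 5.71 to 5.86 for *Sftpd* and 6.67 to 7.29 for *Fcgbp*, with 1 male library assumed to vary like the others where the female one and it remained. Of the recomputed log2 fold changes of the 6 genes in the 8 comparisons, 598 kept their direction and call, 22 gained a call, 20 lost one and 23 reversed, and for the called pathway genes 165 kept both, 27 lost the call and 1 reversed. Unless stated, the cause of a change was not tested. The free RNA of non-epithelial cells limits what can be read there. It was 45.1, 65.8 and 73.5% of their UMIs by the profile of 10 to 100 UMIs. By that of deeper uncalled barcodes it was 40.3, 60.8 and 68.4%.

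Without the replicate block (library), a block that pairs the 2 sides of a comparison since both come from 1 cell suspension, the number of genes of the 6 called was 2 in Car6hi-like cells in place of 4, 2 in fibroblast-like cells in place of 4, 0 in endothelial-like cells in place of 1 and 1 in myeloid-like cells in place of 2. *Ltf* in Car6hi-like cells was then at 2.82 (edgeR adjusted p = 0.235) and *Lcn2* at 2.37 (edgeR adjusted p = 0.257). In lymphoid-like cells *Ltf* turned to -0.60, *Dmbt1* to -0.38 and *Sftpd* to -0.23. A pairing of female and male libraries was not possible because the labels' numbers pair no samples.

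Number called by other settings: in fibroblast-like cells (4) it was 2 with more doublets left out, 0 with free RNA subtracted and 2 with the profile of deeper uncalled barcodes (up to 1000 UMIs). In endothelial-like cells (1) it was 3 by total UMIs, 3 without the filter on low counts, 3 with no doublets left out, 0 with free RNA subtracted and 0 by DESeq2, with 0 to 3 on leaving out 1 library. In lymphoid-like cells (1) it was 3 at resolution 0.6 and 2 with no doublets left out. In myeloid-like cells (2) it was 0 with free RNA subtracted, 1 with the profile of deeper uncalled barcodes, 1 with no doublets left out and 1 by DESeq2.

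Signs reversed for these values, of which only *Agr2* had been called. Scaled to total UMIs, *Lcn2* in endothelial-like cells went to 0.090, *Ltf*, *Dmbt1* and *Sftpd* in lymphoid-like cells to -0.30, -0.25 and -0.15 and *Agr2* in Ltf+-like cells to 0.029. With no doublets left out, *Lcn2* and *Sftpd* in endothelial-like cells went to 0.055 and 0.37 and *Ltf*, *Dmbt1* and *Sftpd* in lymphoid-like cells to -0.24, -0.26 and -0.094. Without male library 2, *Lcn2* in Ltf+-like cells went to -0.061, *Lcn2* and *Ltf* in endothelial-like cells to 0.12 and -0.24, *Sftpd* in lymphoid-like cells to -0.63 and *Ltf* in myeloid-like cells to 0.36, and without the female library *Ltf* in lymphoid-like cells to -0.60. On leaving out 1 library each, these values ranged from -0.061 to 1.34 for *Lcn2* in Ltf+-like cells, -0.496 to 0.12 for *Lcn2* and -0.24 to 0.97 for *Ltf* in endothelial-like cells, -0.60 to 0.63 for *Ltf* and -0.63 to 0.62 for *Sftpd* in lymphoid-like cells and -0.41 to 0.36 for *Ltf* in myeloid-like cells. *Dmbt1* in lymphoid-like cells went to -0.58 by DESeq2, *Sftpd* there to -0.47 above 1000 UMIs a cell and *Lcn2* there to 0.047 with more doublets left out. *Ltf* in myeloid-like cells went to 0.22 under 5% mitochondrial UMIs and to 0.11 with more doublets left out.

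Levels and shares moved as follows (means of 3 libraries). Under 5% mitochondrial UMIs, Ltf+-like cells held 92.0% of *Ltf*, 93.9% of *Dmbt1*, 81.4% of *Sftpd* and 89.4% of *Fcgbp* UMIs, at 2693 CPM of *Ltf*, 476 of *Dmbt1* and 172 of *Fcgbp*, and 19.6% of cells had *Fcgbp*. With more doublets left out they held 66.2, 65.3, 65.7 and 64.8% of the UMIs of *Ltf*, *Dmbt1*, *Sftpd* and *Fcgbp*. These means join libraries that the limit touched unequally, as it left out 67 of 146, 34 of 396 and 57 of 443 Ltf+-like cells. At resolution 1.6 they held 94.6% of *Dmbt1* UMIs. With no integration they held 79.3, 53.6, 84.1, 68.2 and 82.7% of the UMIs of *Ltf*, *Pglyrp1*, *Dmbt1*, *Sftpd* and *Fcgbp*, at 15228, 585, 3034, 2168 and 1176 CPM, and the share of cells with a UMI was 91.2, 44.9, 64.6, 83.7 and 47.9%, and 14.6% for *Lcn2*. No Car6hi-like comparison could be made without integration. The larger Ltf+-like cluster alone had 7575, 352, 1329, 1206 and 513 CPM of these 5 genes and 48.3 and 34.0% of cells with *Dmbt1* and *Fcgbp*. Thinned to 500 UMIs, 18.9% of Ltf+-like cells had *Fcgbp* and 6.75% *Lcn2*, thinned to 2000 UMIs 32.5 and 18.3%, and not thinned 39.1 and 27.0%, and 53.9% had *Pglyrp1*. With free RNA subtracted *Lcn2* in MEC-like cells stood at 1884 CPM, and at 1808 CPM with the profile of deeper uncalled barcodes. With no doublets left out it stood at 771 CPM, and Ltf+-like cells had 5636 CPM of *Ltf* and 1151 of *Dmbt1* and held 93.5 and 95.1% of their UMIs.

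Over all genes, scaling to total UMIs changed the split of calls from 753 higher and 810 lower to 5798 and 178 in Ltf+-like cells, from 1735 and 2212 to 9509 and 225 in duct-like, from 1588 and 1833 to 8792 and 218 in MEC-like, from 249 and 230 to 2625 and 53 in Car6hi-like, from 2430 and 2986 to 4267 and 1799 in fibroblast-like, from 1830 and 2340 to 2561 and 1798 in endothelial-like, from 1324 and 2131 to 671 and 3082 in lymphoid-like and from 2191 and 2354 to 1142 and 4068 in myeloid-like cells. Of the 1563 genes called in the Ltf+-like comparison in all, the number was 298 without the block, 2383 without the filter, 3429 without the female library, 716 without male library 1, 923 under 5% mitochondrial UMIs, 763 with free RNA subtracted and 991 by DESeq2. Of the 479 in the Car6hi-like comparison it was 126, 842, 268 without male library 2 and 254 by DESeq2. With free RNA subtracted it was 2463 of 3947 in duct-like, 2150 of 3421 in MEC-like, 2990 of 5416 in fibroblast-like, 2714 of 4170 in endothelial-like, 2077 of 3455 in lymphoid-like and 3004 of 4545 in myeloid-like cells. By DESeq2 it was 3582, 2689 and 2302 in fibroblast-like, endothelial-like and lymphoid-like cells. Without male library 1 it was 2185 in MEC-like cells, without the female library 2243 in lymphoid-like cells and without the filter 6825 in myeloid-like cells.

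Of the 12 pathway genes called, 8 were not called without the block (*Slc40a1*, *Elf3*, *Wfdc12*, *Lrp1*, *Agr2*, *Lgals3*, *Cd14* and *Fth1*). Without male library 1 *Slc40a1* (3.09), *Agr2* (-0.83) and *Fth1* (0.91) and without male library 2 *Elf3* (0.67), *Ehf* (0.93), *Agr2* and *Fth1* (1.01) were no longer called. With free RNA subtracted *Slc40a1* (3.65, edgeR adjusted p = 0.0887) and *Lrp2* (3.06, edgeR adjusted p = 0.0975) were no longer called, and too few UMIs of *Slpi* and *Lgals3*, and of *Ltf* in the Car6hi-like comparison, were left for a test.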
